A study of Mus musculus with 2 samples.

Results

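The cells described here were choroid plexus cells in which mitochondrial transcripts made up under 1% of the RNA molecules counted. They came from hippocampal single-cell suspensions of 57-week-old mice, with 1 library from GlaKO mice and 1 library from wt littermates. GlaKO mice lack alpha-galactosidase A, the lysosomal hydrolase whose loss causes Fabry disease; the design of the deleted allele and the number of animals per library are not given in the labels. Mice of both genotypes were perfused with buffered saline, the hippocampi were dissociated enzymatically, dead cells were sorted away with the dye 7-AAD, and 10000 cells per sample were loaded for 10x Genomics 3′ sequencing. A unique molecular identifier (UMI) stands for 1 captured RNA molecule.

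A barcode was taken as a choroid cell when Folr1, Kcnj13, Sostdc1, Calml4, Cox8b and Kl together had at least 8 UMIs and each of an oligodendrocyte and a microglia marker sum stayed under 10. By this rule 3353 of 10015 barcodes were choroid cells, 804 of 4572 in the GlaKO library and 2549 of 5443 in the wt library. Of these, 1026 cells fell under 1% mitochondrial UMIs (the low class), 348 in GlaKO and 678 in wt. The other 2327 choroid cells, 456 in GlaKO and 1871 in wt, form the higher class. The mitochondrial genes and the 6 markers chose the cells, so their values are given as descriptions without a test. The 6 markers stayed in the fit across all genes, and counts without them are given where they enter. No barcode of the low class occurred in both libraries, whereas 6 barcodes did among all of them. Choroid cells are no part of the hippocampus itself and made up 17.6% of GlaKO barcodes and 46.8% of wt barcodes.

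The choroid plexus is the epithelial sheet in the brain ventricles that secretes cerebrospinal fluid. Its cells carry dense mitochondria, pump sodium, chloride and bicarbonate with water following, move nutrients and hormones across the blood-fluid barrier, and export proteins such as transthyretin, apolipoproteins and growth factor carriers. Proteins bound for export, for lysosomes or for the membrane are made at the endoplasmic reticulum. Ribosomes translating them are led there by a hydrophobic stretch, usually at the N-terminus, so the mRNAs of these proteins lie largely on that membrane.

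Mitochondrial transcripts were low as a group in these cells. The median cell had 0.405% mitochondrial UMIs in the GlaKO low class, against 2.6% in the GlaKO higher class. The medians were 0.353% in the wt low class and 3.37% in the wt higher class. All 13 mitochondrially encoded protein genes were lower, with log2 ratios of low over higher between -2.58 (mt-Co3) and -2.96 (mt-Nd5) in GlaKO. In wt the ratios lay between -2.67 (mt-Nd6) and -3.29 (mt-Nd5). These ratios follow from the rule. The cells were not shallow: the low class had a median of 9749.5 UMIs per cell in GlaKO, against 7702.5 in the GlaKO higher class, and 7602.5 in wt, against 5635 in the wt higher class. The rule's minimum of 8 marker UMIs bears on this depth. The 5th percentile of marker UMIs was 9 in wt low and 18 in wt higher cells. In GlaKO it was 14 in low and 17.75 in higher cells. The part of this minimum in the depth difference was not tested. Cells were also thinned to 2000 UMIs of nuclear genes, and cells with fewer were left out. These numbered 3 low and 9 higher cells in GlaKO and 23 low and 30 higher cells in wt. The median number of genes per thinned cell was then 1094 in the GlaKO low class and 1116 in the GlaKO higher class. In wt it was 1086 in the low class and 1084 in the higher class.

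**Figure D1:**
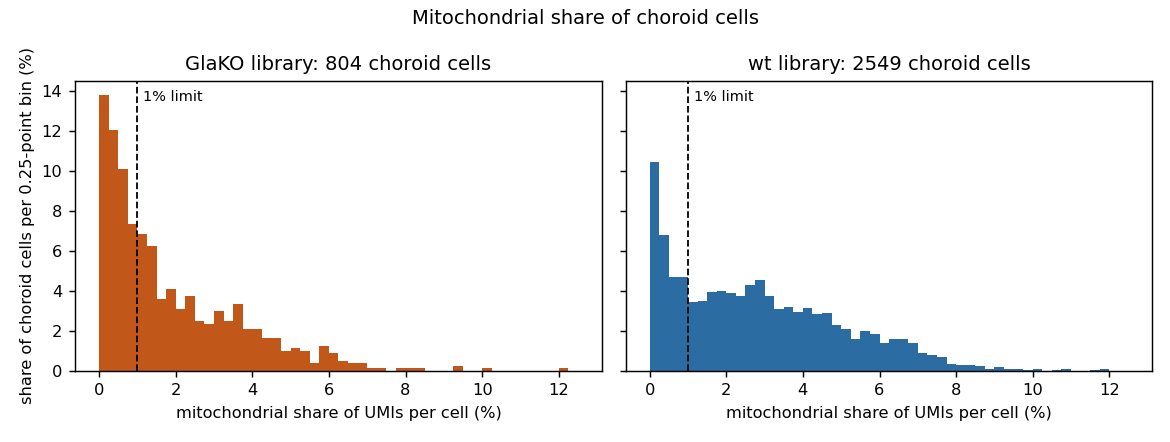
Mitochondrial share of UMIs per choroid cell (x axis, percent) and share of choroid cells in each bin (y axis, percent), for the GlaKO library (left) and the wt library (right). The dashed line is the 1% limit; 43.3% of GlaKO choroid cells and 26.6% of wt choroid cells lie left of it.

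The low class held 43.3% of GlaKO choroid cells (95% exact binomial interval 39.8 to 46.8%) and 26.6% of wt choroid cells (24.9 to 28.4%). With 1 library per genotype the difference has no replicate check, and the intervals cover counting error only. The low class was larger in GlaKO than in wt in all 5 parts into which choroid cells were divided by nuclear UMIs, from 29.5% against 23.3% in the shallowest part to 55.8% against 44.8% in the deepest. The histogram of the mitochondrial share shows a peak near 0 in both libraries, with no gap at the 1% limit. Cells just inside the limit (0.9 to 1%) numbered 14 in GlaKO and 52 in wt, and cells just outside it (1 to 1.1%) numbered 20 and 35.

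Some choroid genes that the rule did not use stood at similar or higher levels in the low class. They belong to a list of choroid identity genes, described below, of which 16 of 32 were lower and 3 higher. The homeobox gene Otx2, which sets choroid fate, stood at 320 CPM (UMIs per 1000000 UMIs of nuclear genes) in the GlaKO low class and 292 CPM in the GlaKO higher class. In wt it stood at 299 CPM in the low class and 295 CPM in the higher class. Trpm3, a cation channel, and Clic6, a chloride channel family member, also had log2 ratios between -0.15 and -0.08 in both libraries. The keratin gene Krt18 rose to 693 CPM in GlaKO low cells, against 563 CPM in GlaKO higher cells, and to 779 CPM in wt low cells, against 540 CPM in wt higher cells (edgeR log2 0.39, adjusted p = 0.0386). Ttr, the most widely used choroid marker, was not analysed here.

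Many other choroid genes were far lower. The clearest is Enpp2, which encodes autotaxin, a secreted enzyme that makes lysophosphatidic acid in cerebrospinal fluid. It stood at 5625 CPM in GlaKO low cells, against 14383 CPM in GlaKO higher cells, and at 3357 CPM in wt low cells, against 15247 CPM in wt higher cells. Both low sums lay below both higher sums. The log2 ratio of low over higher was -1.35 in GlaKO (95% interval -1.38 to -1.33) and -2.18 in wt (-2.20 to -2.16), and the edgeR value was -1.79 (adjusted p = 0.0333). Barcodes with microglia markers held 58.3 CPM of Enpp2 in GlaKO and 77.0 CPM in wt (median depths of 6526 and 5416 UMIs). Barcodes with oligodendrocyte markers held 2236 CPM in GlaKO and 2195 CPM in wt. The part of other cells' RNA in the Enpp2 levels of choroid cells was not tested.

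Across the transcriptome the shift was one-sided. Of 9520 nuclear genes tested, 846 (8.89%) were lower and 83 (0.872%) were higher in the low class at an adjusted p under 0.05 (edgeR quasi-likelihood test on UMI sums, library as a block, Benjamini-Hochberg adjustment). The ratio was at least 1.5-fold in the same direction in both libraries for 1319 lower genes (13.9%) and 22 higher genes (0.231%). With 4 sums the fit leaves 1 residual degree of freedom and the smallest adjusted p was 0.0317. In 7 of 13 other settings of the test no gene passed, while 963 to 1794 genes were lower and 389 to 960 higher at an unadjusted p under 0.05. The 6 other settings called 645 to 1380 genes lower, among them 705 with the DESeq2 test. The higher calls were less stable: at most 2 genes were higher in 10 of the 13 settings, among them 1 with the DESeq2 test and 1 without the block. All adjusted p-values given here come from this fit and carry this limit.

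The genes that fell had a protein feature in common, found after the ratios had been seen and so given as a description without a test. Genes were sorted by the Kyte-Doolittle hydropathy of 1 annotated protein each. An N-terminal stretch was a mean of at least 2 over 12 residues starting within the first 25; a later stretch was a mean of at least 1.6 over 19 residues starting at residue 31 or beyond. The opening of the coding sequence of 8 genes shows the feature. They were chosen by level: the 4 most abundant lower genes with an N-terminal stretch (Enpp2, Apoe, Bsg, Clu), the 2 most abundant genes with such a stretch and ratios above 0 in both libraries (Cox6c, Uqcr10) and the 2 most abundant higher genes with no stretch (Ppia, Ubb). The bases from the start codon on are written 5′ to 3′ on the coding strand, and capitals mark the 12 codons of the most hydrophobic window where it passes the limit (GENCODE vM21 transcripts, build GRCm38).
Enpp2: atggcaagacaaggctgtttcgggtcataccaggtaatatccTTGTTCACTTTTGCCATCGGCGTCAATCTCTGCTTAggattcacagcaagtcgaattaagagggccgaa
Apoe: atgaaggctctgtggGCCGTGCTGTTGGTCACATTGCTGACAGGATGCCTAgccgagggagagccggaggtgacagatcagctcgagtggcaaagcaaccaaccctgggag
Bsg: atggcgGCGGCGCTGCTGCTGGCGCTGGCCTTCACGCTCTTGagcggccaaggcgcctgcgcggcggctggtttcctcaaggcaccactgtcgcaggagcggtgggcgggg
Clu: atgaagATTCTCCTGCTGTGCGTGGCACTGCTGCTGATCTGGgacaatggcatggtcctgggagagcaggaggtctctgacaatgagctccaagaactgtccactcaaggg
Cox6c: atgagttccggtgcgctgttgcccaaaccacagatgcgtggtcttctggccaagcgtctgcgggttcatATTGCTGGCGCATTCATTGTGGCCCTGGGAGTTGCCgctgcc
Uqcr10: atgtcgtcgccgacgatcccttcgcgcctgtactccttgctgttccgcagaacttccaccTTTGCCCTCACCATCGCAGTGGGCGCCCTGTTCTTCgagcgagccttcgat
Ppia: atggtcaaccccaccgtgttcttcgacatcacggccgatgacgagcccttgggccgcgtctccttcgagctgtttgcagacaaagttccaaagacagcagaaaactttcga
Ubb: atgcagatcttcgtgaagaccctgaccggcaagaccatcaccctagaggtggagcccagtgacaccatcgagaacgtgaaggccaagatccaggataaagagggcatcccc

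Enpp2 lies on chromosome 15 (54838901 to 54952892, minus strand), and its window spans residues 15 to 26 of 862. Apoe, the main lipid carrier of brain fluid, lies on chromosome 7 (19696109 to 19699188, minus strand), with its window at residues 6 to 17 of 311. Bsg, a chaperone of lactate carriers at the membrane, lies on chromosome 10 (79704491 to 79711969, plus strand), and Clu, a secreted chaperone, on chromosome 14 (65968483 to 65981547, plus strand). Both have their window at residues 3 to 14. Cox6c, a subunit of cytochrome c oxidase in the mitochondrial inner membrane, lies on chromosome 15 (35925886 to 35938246, minus strand), with its window at residues 24 to 35 of 76. Uqcr10, a small subunit of complex III, lies on chromosome 11 (4701973 to 4704342, minus strand), with its window at residues 21 to 32 of 64. Ppia, a cytosolic prolyl isomerase, and Ubb, a ubiquitin gene, also lie on chromosome 11 (6415443 to 6419817 and 62551171 to 62553213, plus strand), and their most hydrophobic windows averaged 1.02 and 0.73.

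Of 1171 tested genes with an N-terminal stretch, 485 (41.4%) were lower and 2 were higher, beside 8.89% lower among all tested genes. Of 1693 genes with a later stretch only, 303 (17.9%) were lower and 8 higher. Of 6411 genes with no stretch, 53 (0.827%) were lower and 71 higher. Without the 6 rule markers the lower genes numbered 483 of 1168, 302 of 1691 and 53 of 6410 in the same order. The N-terminal and later classes together held nearly all of the lower genes, 57.3% and 35.8% of them. The median log2 ratio of genes with an N-terminal stretch was -0.82 in GlaKO and -1.45 in wt. It was -0.28 in GlaKO and -0.20 in wt for a later stretch only, and 0.05 in GlaKO and 0.21 in wt for no stretch, while the median over all tested genes was -0.04 in GlaKO and 0.13 in wt. Over 17 other settings, single libraries included, the N-terminal median stayed between -1.45 and -0.82. The share lower among N-terminal-stretch genes differed by protein length, with 12.2% (median -0.57) under 200 residues, 36.1% (-1.14) at 200 to 400 and 60.8% (-1.6) from 800 on. Within proteins of 400 to 800 residues, 212 N-terminal-stretch genes (52.7%) were lower, with a median of -1.44, against 21 genes (0.928%) without a stretch, with a median of 0.08.

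**Figure D2:**
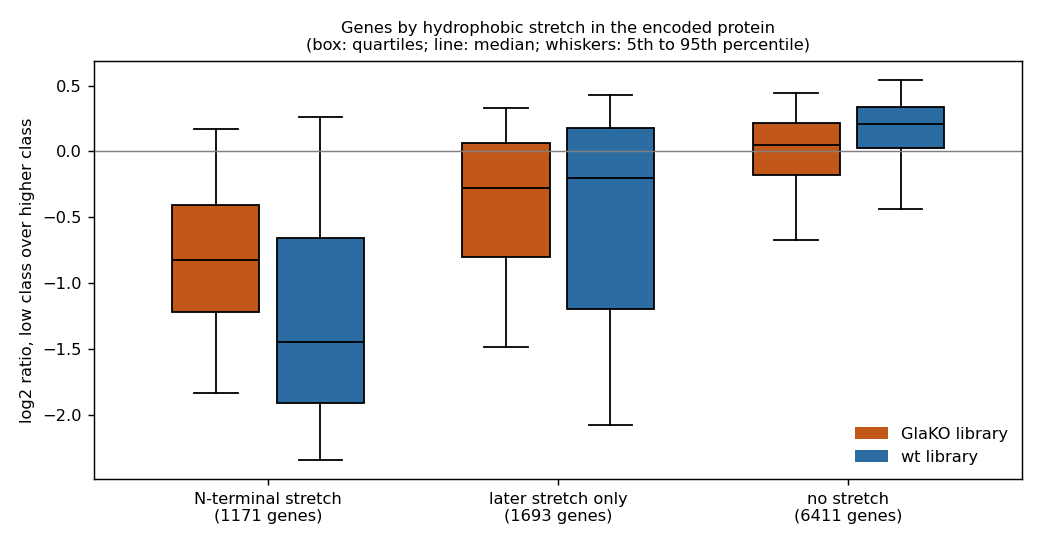
Log2 ratio of the low class over the higher class (y axis) for genes grouped by hydrophobic stretch in their protein (x axis), with the GlaKO library (orange) left of the wt library (blue). Boxes give quartiles, lines medians and whiskers the 5th to 95th percentile over genes; medians for the N-terminal stretch are -0.82 in GlaKO and -1.45 in wt.

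In UMIs per cell, the low class had fewer molecules of N-terminal-stretch genes and more of the other genes. The median cell of the GlaKO low class held 954.5 UMIs of N-terminal-stretch genes, against 1308 in the GlaKO higher class, and the median wt low cell held 593, against 1114 in the wt higher class. UMIs of genes with a later stretch only were 1239 in the GlaKO low class, against 1093 in the GlaKO higher class, and 959 in the wt low class, against 820 in the wt higher class. UMIs of genes with no stretch were 7261 in the GlaKO low class, against 5146 in the GlaKO higher class, and 5893 in the wt low class, against 3589 in the wt higher class. As a share of the cell's nuclear UMIs, N-terminal-stretch genes made up 9.71% in the median GlaKO low cell and 17.5% in the median GlaKO higher cell. The shares were 7.67% in wt low cells and 20.0% in wt higher cells.

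The share changed gradually with the mitochondrial share on both sides of the 1% limit. In wt, cells under 0.1% mitochondrial UMIs had a median N-terminal-stretch share of 6.0%, cells at 0.75 to 1% had 10.3%, cells at 1 to 1.5% had 12.1% and cells at 5% or more had 28.1%. In GlaKO the medians in the same bins were 7.21%, 10.7%, 14.0% and 26.0%. The quartile range of every bin overlapped that of the next bin in both libraries. Enpp2 ran the same way, with 1276 CPM in the lowest and 25213 CPM in the highest wt bin, and 3944 CPM and 26314 CPM in the GlaKO bins. Fth1, the ferritin heavy chain, had 8780 CPM in the lowest and 6804 CPM in the highest wt bin. Within the low class alone, Spearman's rho between mitochondrial and N-terminal-stretch share was 0.26 over 348 GlaKO cells and 0.64 over 678 wt cells. Both shares were counted in the same cells, the mitochondrial share out of all UMIs and the N-terminal-stretch share out of nuclear UMIs.

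**Figure D3:**
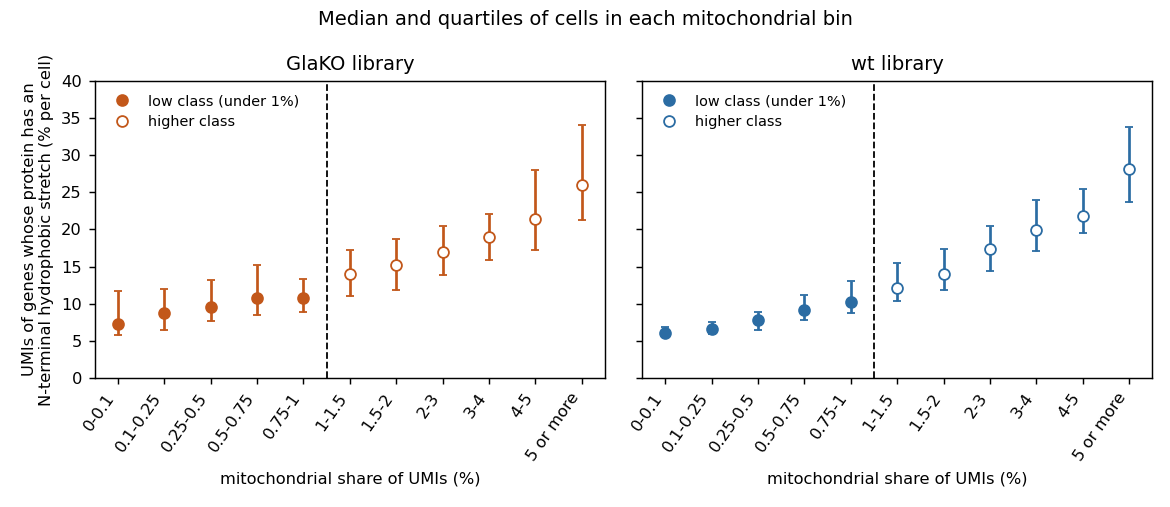
Share of a cell's nuclear UMIs from genes with an N-terminal stretch (y axis, percent, median with quartiles of cells). Cells are in bins of mitochondrial share (x axis, percent), for the GlaKO library (left) and the wt library (right). Filled points are the low class; medians climb to 26.0% in GlaKO and 28.1% in wt in the top bin.

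Other cell types in the same libraries did not show such a span. Over their summed nuclear UMIs, oligodendrocyte-marker barcodes under 1% had an N-terminal-stretch share of 20.2% in GlaKO, against 20.9% for those at 1% or more. In wt the shares were 18.5%, from only 16 barcodes under 1%, and 21.6%. Microglia-marker barcodes under 1% stood at 21.5% in GlaKO, against 23.8% at 1% or more, and at 22.1% in wt, against 24.6%. Summed in the same way, choroid cells had 10.4% in the GlaKO low class, against 17.3% in the GlaKO higher class. They had 8.30% in the wt low class, against 19.5% in the wt higher class. A mitochondrial share under 1% was itself common in microglia-marker barcodes, 48.3% of them in GlaKO and 52.3% in wt, and rare in oligodendrocyte-marker barcodes, 7.81% in GlaKO and 1.86% in wt. The difference between cell types was not tested.

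The 6 rule markers, which selected the cells, are described without drawing on them for the stretch classes. Folr1, a folate receptor held at the membrane, stood at 592 CPM in GlaKO low cells, against 1197 CPM in GlaKO higher cells, and at 390 CPM in wt low cells, against 1431 CPM in wt higher cells. Kcnj13, a potassium channel, and Sostdc1, a secreted BMP and Wnt antagonist, were lower in both libraries too, with log2 ratios of -0.98 and -0.77 in GlaKO and -1.89 and -1.90 in wt. Kl, the membrane protein klotho, had -0.76 in GlaKO and -1.08 in wt. Calml4, a calmodulin-like cytosolic protein, had 0.21 in GlaKO and 0.28 in wt. Cox8b, a small subunit of cytochrome c oxidase, had 0.16 in GlaKO and 0.22 in wt.

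Of 32 tested genes that define choroid identity, 16 were lower and 3 higher, with a median log2 of -0.66 in GlaKO and -1.49 in wt. Aqp1, the apical water channel, fell to 34.7 CPM in GlaKO low cells, against 88.1 CPM in GlaKO higher cells, and to 22.7 CPM in wt low cells, against 123 CPM in wt higher cells (log2 -1.94, adjusted p = 0.0358). Prlr, the prolactin receptor, had a log2 of -1.70 and Htr2c, the serotonin receptor of this tissue, one of -1.16, both called lower. Krt18 and the homeobox gene Msx1 (log2 0.33) were among the 3 higher genes. Among the 16 genes of the list with an N-terminal stretch 13 were lower, and among the 9 with no stretch none was, at a median of 0.26.

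Secreted proteins of cerebrospinal fluid were lower in 17 of 30 genes and higher in none, with a median of -0.91 in GlaKO and -1.58 in wt. Apoe fell to 2624 CPM in GlaKO low cells, against 6001 CPM in GlaKO higher cells, and to 2453 CPM in wt low cells, against 9661 CPM in wt higher cells (log2 -1.61, adjusted p = 0.0334). Igfbp2, an insulin-like growth factor carrier, fell by 1.63 on the log2 scale and A2m, a protease inhibitor and the lowest of the list, by 1.99. Nrtn, the growth factor neurturin, had the highest ratio of the list, 0.00. Cst3 (cystatin C) and Ptgds (prostaglandin D synthase), both very abundant, had log2 values of -1.10 and -0.83 and did not pass the threshold.

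Ion and water transport genes were lower in 15 of 26 and higher in none, with a median of -1.44. Slc12a2, the sodium-potassium-chloride cotransporter of the apical membrane, fell to 70.5 CPM in GlaKO low cells, against 210 CPM in GlaKO higher cells, and to 51.7 CPM in wt low cells, against 237 CPM in wt higher cells (log2 -1.92, adjusted p = 0.0317). Atp1b1, the beta subunit of the sodium pump (log2 -1.45), and the pump regulator Fxyd1 (-0.65) did not pass the threshold. Car2, the cytosolic carbonic anhydrase, had the highest value (0.25).

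Solute and nutrient carriers were lower in 23 of 29 genes and higher in none, with a median of -1.71. Slc22a17, a lipocalin receptor and the most abundant, fell to 471 CPM in GlaKO low cells, against 1128 CPM in GlaKO higher cells, and to 327 CPM in wt low cells, against 1422 CPM in wt higher cells (log2 -1.72, adjusted p = 0.0341). Slc2a1, the glucose transporter GLUT1, fell by 1.95 on the log2 scale. Abcc4, an efflux pump, had the lowest value of the list (-2.60), and Slc29a4, a monoamine transporter, the highest (-0.87), itself called lower. Steap1, a membrane protein of the STEAP family and the next in abundance, had -1.27 and did not pass.

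Lysosomal enzymes and cofactors were lower in 31 of 40 genes and higher in none, with a median of -1.21 in GlaKO and -1.94 in wt. Psap, the precursor of the saposins that assist sphingolipid breakdown, fell to 385 CPM in GlaKO low cells, against 1123 CPM in GlaKO higher cells, and to 325 CPM in wt low cells, against 1632 CPM in wt higher cells (log2 -1.97, adjusted p = 0.0317). Ctsd, the protease cathepsin D, fell by 1.84 on the log2 scale. Cd63, a lysosomal membrane tetraspanin, had -1.15 and did not pass. Ctss, a cathepsin typical of microglia, had 0.01. The 5 genes of the list with no stretch were low as well, with 3 called lower and a median of -1.36. In the list of lysosomal membrane genes and the proton pump (vacuolar ATPase), 11 of 27 were lower, and the list divided: the 10 members with an N-terminal stretch had a median of -1.43, while the 11 with no stretch had 0.14. Scarb2, a lysosomal membrane receptor, fell by 1.72 on the log2 scale, whereas the cytosolic pump subunits Atp6v1f (0.29) and Atp6v1e1 (0.24) had values above 0 that did not pass.

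**Figure D4:**
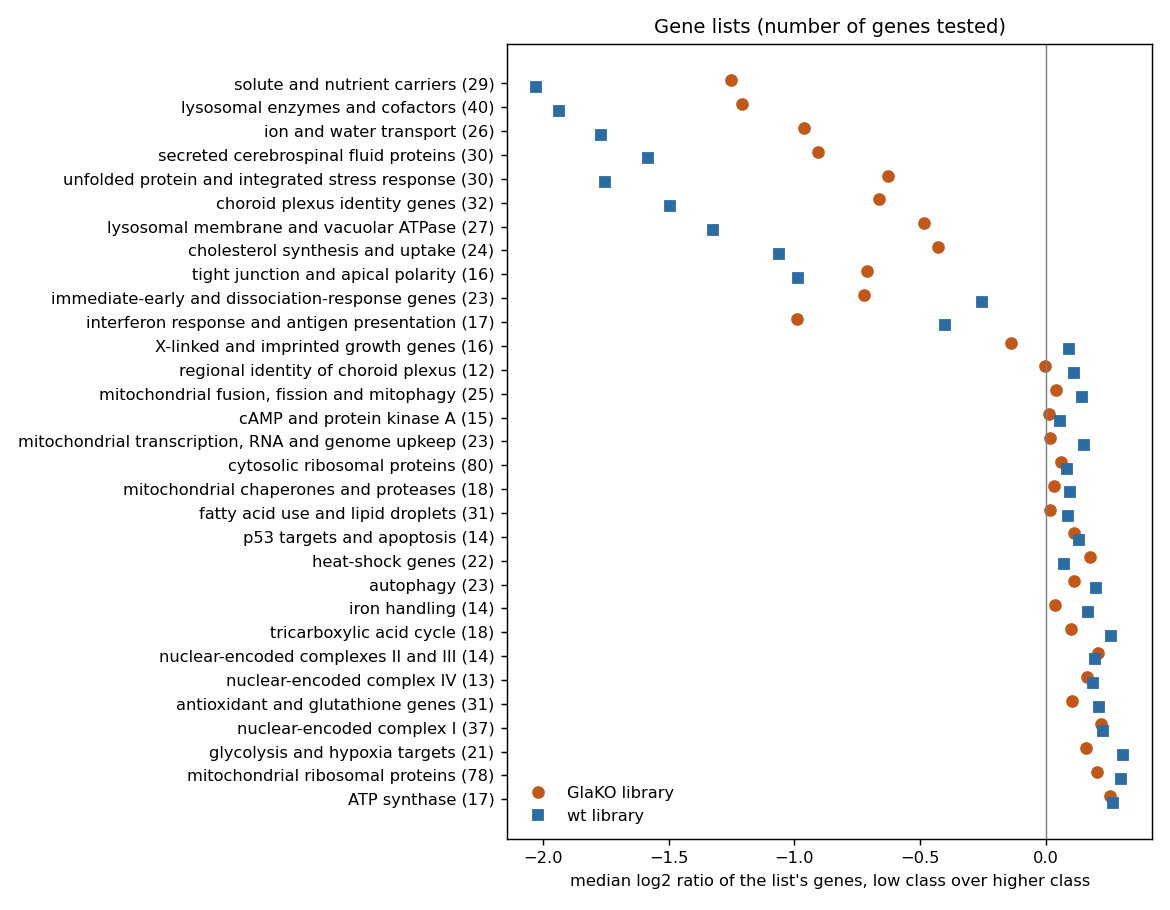
Median log2 ratio of the low class over the higher class (x axis) for each gene list with at least 10 tested genes (rows, number of genes in brackets), in the GlaKO library (orange circles) and the wt library (blue squares). Carriers, lysosomal enzymes, ion transport and secreted proteins lie farthest left, with carriers at -1.25 in GlaKO and -2.02 in wt; ATP synthase lies farthest right, at 0.25 in GlaKO and 0.27 in wt.

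The same division ran through the unfolded protein and integrated stress response genes, where 12 of 30 were lower and none higher. Residents of the endoplasmic reticulum fell: Hspa5, its main chaperone, stood at 591 CPM in GlaKO low cells, against 1412 CPM in GlaKO higher cells, and at 265 CPM in wt low cells, against 1228 CPM in wt higher cells (log2 -1.76, adjusted p = 0.0355). Hsp90b1 fell by 1.56 and the lectin chaperone Calr by 1.8 on the log2 scale. The 9 members with no stretch had a median of -0.07 and none was lower, among them the transcription factors Atf4 (-0.08) and Ddit3 (0.10). Cholesterol synthesis and uptake genes were lower in 9 of 24, all 9 with a stretch. The cytosolic enzyme gene Fdps was higher (0.54), and Hmgcs1 had 0.26 without passing. In the tight junction and polarity list, 4 of 16 were lower, with Ocln (occludin) at -1.98 and the cytosolic linker Ezr at 0.25.

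Antigen presentation and interferon genes were lower in 8 of 17 genes and higher in none. H2-K1, an MHC class I heavy chain, fell by 1.5 and Bst2, an interferon-induced membrane protein, by 1.29 on the log2 scale. Ifi27, an interferon-induced gene and the most abundant of the list, had 0.17. H2-Eb1, an MHC class II chain, had the highest value (2.68) without passing, and 1 cell held 93.3% of its UMIs in the wt low class. The immediate-early genes, which are often induced by dissociation, were lower in 2 of 23 (8.70%), near the 8.89% of all tested genes, with a median of -0.72 in GlaKO and -0.25 in wt. Their median was -0.48 in the fit and -0.073 with parts of UMI depth weighted equally. Fos, one of the 2, fell to 57.2 CPM in GlaKO low cells, against 124 CPM in GlaKO higher cells, and to 45.1 CPM in wt low cells, against 69.7 CPM in wt higher cells (log2 -0.89, adjusted p = 0.0358). Jund, the most abundant, had 0.12.

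Most nuclear genes for mitochondrial proteins did not pass the test, and nearly all that did were higher. Of 37 complex I genes none was lower and 4 (10.8%) were higher, beside 0.872% higher among all tested genes. The median of the 37 was 0.22 in GlaKO and 0.23 in wt. Among all tested genes with no stretch and at least 50 CPM in the higher class, 3.37% were higher. Their median was 0.13 in GlaKO and 0.25 in wt. Ndufv2, a core subunit, had the highest value (0.34). Complexes II and III (14 genes, 2 higher), complex IV (13 genes, none called), ATP synthase (17 genes, 3 higher) and the tricarboxylic acid cycle (18 genes, 3 higher) had no lower gene and medians of 0.16, 0.18, 0.24 and 0.14. Mitochondrial ribosomal proteins had a median of 0.23 over 78 genes, with 1 called higher. Genes for mitochondrial transcription, RNA and genome upkeep had a median of 0.03 over 23 genes with none called, and those for fusion, fission and mitophagy 0.00 over 25 genes with 2 higher. Mitochondrial chaperones and proteases had 1 lower gene of 18 and a median of 0.05, with -0.35 for the 6 members with a later stretch. Complex IV subunit gene Cox6c, printed above, stood at 5206 CPM in GlaKO low cells, against 4649 CPM in GlaKO higher cells, and at 6396 CPM in wt low cells, against 5983 CPM in wt higher cells. Ndufa4, another inner-membrane protein with an N-terminal stretch, had a log2 of 0.04. In all, 79 of the 1171 genes with an N-terminal stretch had a ratio above 0 in both libraries.

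Glycolysis genes were among the higher ones. In the list of glycolysis genes and hypoxia targets, 6 of 21 (28.6%) were higher, beside 0.872% of all tested genes. The 6 were Gapdh, Ldhb, Aldoa, Eno1, Pkm and Gpi1, with log2 values between 0.32 and 0.39. The median of the list was 0.23. Genes with no stretch and at least 50 CPM in the higher class were higher in 3.37%, with a median of 0.17. Few higher calls held elsewhere: at most 2 genes of all tested were higher in 10 of the 13 other settings. Gapdh stood at 3649 CPM in GlaKO low cells, against 2896 CPM in GlaKO higher cells, and at 3751 CPM in wt low cells, against 2822 CPM in wt higher cells. The 3 lower genes of the list were Slc2a1, the endoplasmic reticulum prolyl hydroxylase P4ha1 (-1.70) and Vegfa, a secreted growth factor (-0.69). Cytosolic ribosomal proteins had none called in 80 genes and a median of 0.05, which turned slightly negative in 3 of the other settings. Heat-shock genes had 1 lower (Hspa5) and 1 higher (Hspb1, 0.38) of 22, with Hspa8 at 0.07.

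By the naming rule, the lowest genes were Npr2, Abcc4, Sun1, Matn2, Emc1, Piezo1, BC067074, Pnpla6, Selenon, Abcc1, Atp13a1 and Alg2, with log2 values between -2.93 and -2.28. All 12 encode a protein with an N-terminal or a later stretch. Npr2, the receptor of C-type natriuretic peptide, had 7 UMIs in the GlaKO low sum, against 32 in the GlaKO higher sum, and 6 in the wt low sum, against 148 in the wt higher sum. Emc1, part of the complex that inserts proteins into the endoplasmic reticulum, had 5.55 CPM in GlaKO low cells, against 27.1 CPM in GlaKO higher cells, and 4.09 CPM in wt low cells, against 24.3 CPM in wt higher cells. Piezo1 is a mechanically gated channel, Matn2 an extracellular matrix protein and Sun1 an inner nuclear membrane protein.

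The highest genes by the same rule included Mapk13, Snhg18, Fdps, Cltb, Isyna1, Ciapin1, Pepd, Tubb4b, Klhdc2, Hopx and Cops3, none of which encodes a protein with a stretch. Mapk13, a p38-type stress kinase, stood apart from the rest: it rose to 31.7 CPM in GlaKO low cells, against 14.6 CPM in GlaKO higher cells, and to 12.8 CPM in wt low cells, against 3.45 CPM in wt higher cells (log2 1.45, adjusted p = 0.0395). The others had log2 values between 0.45 and 0.65. Hopx, a homeodomain cofactor, rose to 600 CPM in GlaKO low cells, against 451 CPM in GlaKO higher cells, and to 426 CPM in wt low cells, against 291 CPM in wt higher cells. Tubb4b encodes a tubulin of cilia and Cltb a clathrin light chain.

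The few lower genes with no stretch by this measure included proteins that work at the endoplasmic reticulum or in lysosomes. Srpr, the receptor for the signal recognition particle, fell by 1.64, the disulfide isomerase P4hb by 1.64 and the lysosomal protein Plbd2 by 1.92 on the log2 scale. These 3 were chosen after their values were seen.

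Markers of other cell types moved with the class in some lists. Oligodendrocyte markers outside the rule summed to 525 CPM in the GlaKO low class, against 870 CPM in the GlaKO higher class, and to 527 CPM in the wt low class, against 1138 CPM in the wt higher class. Trf, which choroid cells also make, was their most abundant member. Astrocyte markers summed to 159 CPM in the GlaKO low class, against 288 CPM in the GlaKO higher class, and to 144 CPM in the wt low class, against 181 CPM in the wt higher class. Microglia markers summed to 101 CPM in the GlaKO low class, against 193 CPM in the GlaKO higher class, and to 141 CPM in the wt low class, against 146 CPM in the wt higher class. Oligodendrocyte precursor markers summed to 61.6 CPM in the GlaKO low class, against 174 CPM in the GlaKO higher class, and to 49.9 CPM in the wt low class, against 63.2 CPM in the wt higher class. Endothelial markers summed to 46.7 CPM in the GlaKO low class, against 119 CPM in the GlaKO higher class, and to 50.3 CPM in the wt low class, against 92.7 CPM in the wt higher class. Neuron markers summed to 64.7 CPM in the GlaKO low class, against 103 CPM in the GlaKO higher class, and to 34.3 CPM in the wt low class, against 97.0 CPM in the wt higher class. The sums of these lists were lower in the low class in both libraries. For microglia markers in wt the sums were close. The median log2 ratio of the tested microglia markers was 0.34 in wt and -0.90 in GlaKO. Pericyte and stroma markers summed to 44.4 CPM in the GlaKO low class, against 103 CPM in the GlaKO higher class, and to 75.8 CPM in the wt low class, against 125 CPM in the wt higher class. T and B cell markers summed to 25.5 CPM in the GlaKO low class, against 39.0 CPM in the GlaKO higher class, and to 32.1 CPM in the wt low class, against 32.2 CPM in the wt higher class. Erythroid markers summed to 104 CPM in the GlaKO low class, against 110 CPM in the GlaKO higher class, and to 33.9 CPM in the wt low class, against 36.3 CPM in the wt higher class, so this list differed by library rather than by class. The border macrophage list summed to 3.33 CPM in the GlaKO low class, against 24.1 CPM in the GlaKO higher class, and to 50.6 CPM in the wt low class, against 6.50 CPM in the wt higher class, and Cd74 led it. Ciliated ependyma markers summed to 1921 CPM in the GlaKO low class, against 2260 CPM in the GlaKO higher class, and to 1958 CPM in the wt low class, against 2135 CPM in the wt higher class. Rsph1, which choroid cilia also use, led that list and was higher (0.36). The ependymal gene Ccdc153 had 0 UMIs in the GlaKO low sum, which allows up to 0.833 CPM from 3 counts, against 28.4 CPM in the GlaKO higher class, and 1 UMI in the wt low sum. The part of other cells' RNA in the class difference was not tested.

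The targeted gene Gla was sparse. It had 18 UMIs in the GlaKO low class (5 CPM, in 5.17% of cells), against 14 UMIs in the wt low class (2.49 CPM, in 1.92% of cells). For Gla this gave a log2 difference between GlaKO and wt of 1.01, with a 95% interval of -0.08 to 2.13, so no lowering was detectable in the low class at this depth. In the higher class Gla stood at 6.90 CPM in GlaKO and 18.0 CPM in wt, a log2 ratio of -1.38 (-2.03 to -0.79). Reads were taken at the 3′ end of transcripts, and which part of Gla the allele removes is not given in the labels, so the genotype was not checked by them.

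GlaKO and wt were compared within the low class on 6835 genes with at least 100 summed UMIs. With 1 library per genotype no test was possible, and the intervals below cover counting error only. By at least 2-fold, 152 genes (2.22%) were higher in GlaKO and 35 (0.512%) were lower. In the higher class 126 of 8649 genes (1.46%) were higher and 36 (0.416%) lower. The genes higher in GlaKO low cells were again weighted to the stretch classes: 80 of 653 with an N-terminal stretch (12.3%), against 34 of 4982 with no stretch (0.682%). The median log2 ratio of GlaKO over wt for N-terminal-stretch genes was 0.48 in the low class and -0.04 in the higher class, and 0.44 to 0.69 in the low class over 10 other settings. The same genes had the smaller difference between classes in GlaKO (median -0.82, against -1.45 in wt); whether the libraries differ was not tested.

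The unfolded protein response genes had the highest ratios of any list of at least 10 genes, with a median log2 ratio of GlaKO over wt of 1.09 in the low class, where 16 of 20 genes had an interval above 0, and 0.21 in the higher class. Over all 6829 genes compared in this way, 1244 (18.2%) had a low-class interval above 0. Among the 651 of these with an N-terminal stretch, 385 had one. Of the 30 tested genes of the list, 16 have an N-terminal stretch. Hspa5 stood at 591 CPM in GlaKO low cells and 265 CPM in wt low cells (log2 1.16, 95% interval 1.06 to 1.25), and at 1412 CPM in GlaKO higher cells and 1228 CPM in wt higher cells (0.20). Manf, a growth factor released under stress of the endoplasmic reticulum, stood at 816 CPM in GlaKO low cells and 254 CPM in wt low cells (1.68, 1.59 to 1.77). Dnajc3, an inhibitor of the kinase PERK, had 1.85 in the low class and 0.34 in the higher class. All 3 lay higher in GlaKO in both classes, with the wider distance in the low class.

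Among the other lists of at least 10 genes, secreted proteins had a median log2 ratio of GlaKO over wt of 0.57 in the low class and -0.10 in the higher class, solute carriers 0.51 and -0.33, ion and water transport 0.41 and -0.06, choroid identity 0.39 and -0.08, and lysosomal enzymes 0.38 and -0.31. Heat-shock genes had 0.44 in the low class and 0.39 in the higher class. In the low class 18 of 22 intervals lay above 0, beside 18.2% over all 6829 genes compared. Hspb1, a small heat-shock protein, stood at 663 CPM in GlaKO low cells and 245 CPM in wt low cells (1.44), and at 481 CPM in GlaKO higher cells and 191 CPM in wt higher cells (1.33). Immediate-early genes had 0.19 in the low class and 0.68 in the higher class. In the higher class 12 of 14 intervals lay above 0, beside 24.0% over all 6829 genes compared. Of the shorter marker lists, erythroid markers (3 genes) had 1.5 in the low class and 1.34 in the higher class, and oligodendrocyte markers (6 genes) 0.46 and 0.68; the part of this RNA in the genotype difference was not tested. Nuclear complex I genes had -0.14 in the low class and -0.11 in the higher class, and cytosolic ribosomal proteins 0.01 and 0.04.

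**Figure D5:**
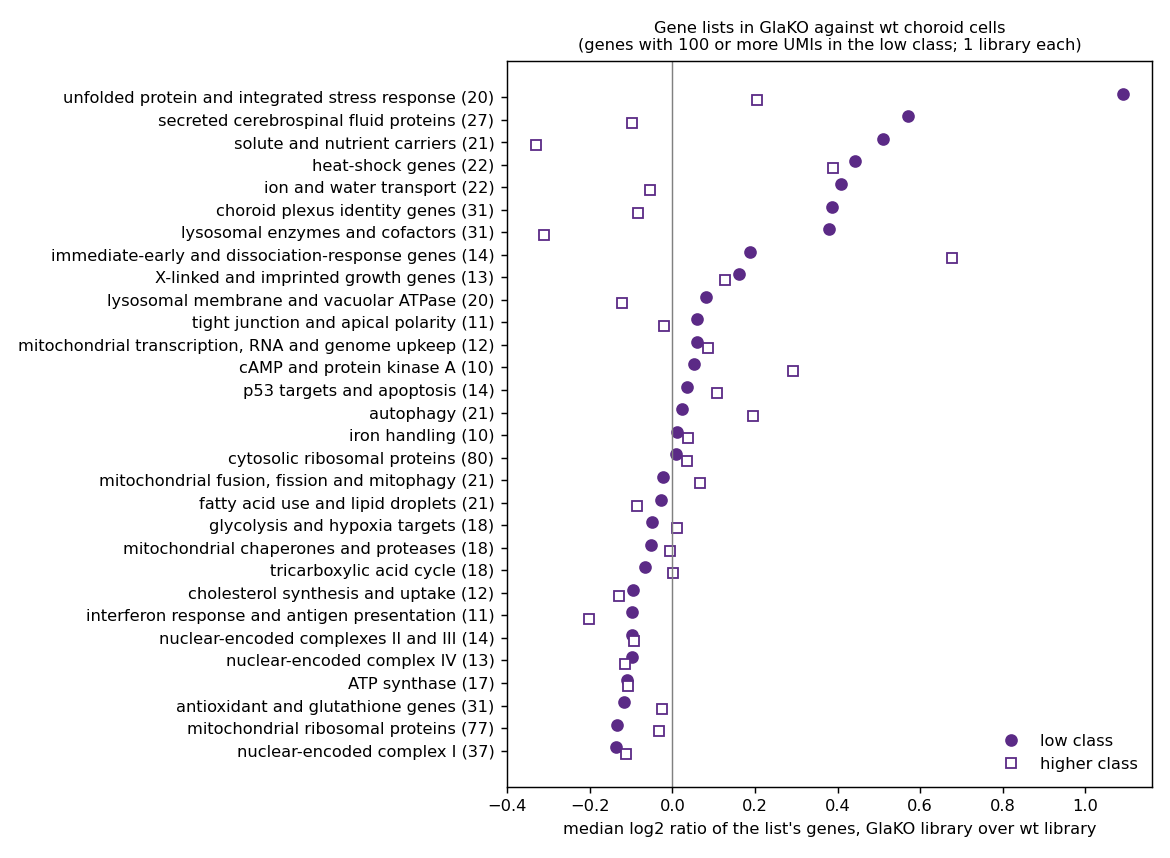
Median log2 ratio of the GlaKO library over the wt library (x axis) for gene lists with at least 10 genes measured in the low class (rows, number of genes in brackets), in the low class (filled circles) and the higher class (open squares). Unfolded protein response genes lie farthest right in the low class, at 1.09, against 0.21 in the higher class; there is 1 library per genotype and no test.

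By the naming rule, the highest genes of GlaKO over wt in the low class were Pcsk2, Rnaset2a, Cidea, Herpud1, Creld2, Dnajb9, Sdf2l1 and Ogn. Pcsk2, a prohormone convertase, stood at 49.1 CPM in GlaKO low cells and 8.70 CPM in wt low cells (log2 2.5, interval 2.03 to 2.98). Herpud1, Creld2, Dnajb9 and Sdf2l1 are all induced by stress of the endoplasmic reticulum and had log2 ratios of 2.14, 2.13, 2.04 and 1.93, against 0.88, 0.82, 0.78 and 0.70 in the higher class. Cidea, a lipid droplet protein, stood at 57.5 CPM in GlaKO low cells and 11.5 CPM in wt low cells (2.32), and differed as much in the higher class (2.49). Rnaset2a (2.32) has a near-identical copy, Rnaset2b, so its count may be divided between the copies.

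The lowest genes were Bex4, Rlbp1, Nme2, Dynlt1b, Hist2h2aa1, Tpm2, Fabp3 and Cdk1. Bex4, a small X-linked gene, had 2.78 CPM in GlaKO low cells and 33.6 CPM in wt low cells (log2 -3.60, interval -4.68 to -2.68), and -2.05 in the higher class. Fabp3, a fatty acid carrier, stood at 96.9 CPM in GlaKO low cells and 275 CPM in wt low cells (-1.5), and had -1.26 in the higher class. Nme2, Dynlt1b and Hist2h2aa1 have near-identical copies in the genome, and their ratios (-1.98, -1.88 and -1.73) are uncertain for that reason. Cdk1, a cell cycle kinase, rested on 23 UMIs in GlaKO and 97 in wt (-1.43), with 0.36 in the higher class. All of these genes but Cdk1 had a ratio below 0 in the higher class as well.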

How the data were processed

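Single-cell libraries made with the 10x Genomics 3′ chemistry v3.1 were analysed, 1 from GlaKO and 1 from wt hippocampus. The authors deposited raw UMI counts per gene and barcode; per the submitters' processing notes, Cell Ranger 6.0.1, R 4.1.3 and Seurat 4 were used with build mm10. The deposited barcodes numbered 4572 for GlaKO and 5443 for wt, with 29914106 and 31929688 UMIs and medians of 6101 and 5054 per barcode. No further cells were removed and no doublet caller was run; limits on oligodendrocyte and microglia markers and an alternative without the 4% of barcodes with the most UMIs bear on doublets.

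UMIs were summed per library and class over 12731 nuclear genes listed in both libraries, so that mitochondrial UMIs enter no total. Genes with at least 100 summed UMIs (9520) were tested with edgeR 4.0.16 (R 4.3.3; TMM scaling, quasi-likelihood F test, library as a block, Benjamini-Hochberg adjustment, threshold 0.05). The 4 sums pair by library, since both classes come from the same suspension. Sums are not cultures or animals. With library as a block, the p-values rest on how far the low-over-higher ratio differs between the 2 libraries, together with spread shared across genes. Each library is 1 genotype, so this difference cannot be told apart from a genotype difference. The test was checked on simulated counts with known fold changes. Each fold change was the same in both libraries, so the check does not cover ratios that differ between them. DESeq2 1.42.0 served as an alternative. Log2 ratios within a library or class carry exact conditional 95% intervals, which cover counting error only. The 2 libraries allow no test of genotype.

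Hydropathy was computed from 1 protein-coding transcript per gene (GENCODE vM21, build GRCm38, APPRIS principal first); 9275 tested genes had a protein and 245 did not. Genes named in the text were the 12 highest and 12 lowest past the threshold, in the same direction in both libraries, with at least 10 CPM where higher and no cell holding over 20% of a sum's UMIs; the 8 highest and 8 lowest of GlaKO over wt under the same level and single-cell conditions; and the extremes and 2 most abundant genes of each list. Members, gene lists and tests were chosen with earlier results of these data known, and the hydropathy classes after the ratios were seen. Alternatives covered scaling, minimum counts, mitochondrial limits, marker limits, thinning to 2000 nuclear UMIs, depth parts, the replicate block and each library alone. Some genes that the rule names are not reported here.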

Additional observations from a re-analysis of the deposited data

Results flagged for a closer look

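In 4 comparisons of lists with at least 5 genes, the median was at least 0.1 from 0 on the log2 scale in both classes or libraries, with opposite signs. Other lists had opposite signs with 1 value nearer to 0, or too few genes. None of these differences was tested, since each genotype has 1 library.

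Lysosomal enzymes and cofactors had a median log2 ratio of GlaKO over wt of 0.379 in the low class and -0.312 in the higher class. Solute and nutrient carriers had 0.511 in the low class and -0.330 in the higher class. All genes with an N-terminal stretch had 0.481 in the low class and -0.044 in the higher class. Those with a later stretch only had 0.085 and 0.046. Of the 40 tested lysosomal genes, 33 have an N-terminal stretch. Among the 29 tested carriers, 9 have an N-terminal stretch and 20 a later stretch only.

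The microglia markers outside the selection rule had a median log2 ratio of low over higher of -0.903 in the GlaKO library and 0.338 in the wt library. Their median ratio of GlaKO over wt was -0.501 in the low class and 0.818 in the higher class. These values rest on few UMIs: the summed markers stood at 101 CPM in the GlaKO low class and 141 CPM in the wt low class.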

How the results depend on the processing

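The calls of single genes depended on the processing, while the median of N-terminal-stretch genes kept its sign in all 17 settings tried. With edgeR, 0 genes were lower and 0 higher under DESeq2 size factors, a minimum count of 500, mitochondrial limits of 0.5% and 1.5%, without cells between 0.8 and 1.2%, with a marker sum of at least 20, and without the 4% of barcodes with the most UMIs. The smallest adjusted p there was 0.0553 to 0.129, and at an unadjusted p under 0.05 there were 963 to 1794 lower and 389 to 960 higher genes. Library totals gave 1380 lower and 251 higher genes, no minimum count 1005 and 159, and a limit of 2% 1336 and 106. Cells thinned to 2000 nuclear UMIs gave 769 lower and 2 higher genes. The DESeq2 test gave 705 lower and 1 higher, with 574 of the lower genes shared with edgeR. Without the pairing of the sums by library (no replicate block), 645 genes were lower and 1 higher, and 629 of the lower ones were shared. Leaving out a library leaves no residual degrees of freedom and so no test; the N-terminal-stretch median was -0.82 in GlaKO alone and -1.45 in wt alone.

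The share of choroid cells in the low class followed the limit: 25.9% in GlaKO and 17.2% in wt at 0.5%, 56.3% and 33.5% at 1.5%, and 64.1% and 41.5% at 2%. It was 38.9% in GlaKO with the depth parts weighted equally and 21.7% in wt with a marker sum of at least 20. Genes at least 2-fold higher and lower in GlaKO within the low class numbered 465 and 147 at a minimum count of 20, 27 and 8 at 500, 57 and 13 after thinning, and 341 and 112 with depth parts weighted equally. The N-terminal-stretch median of GlaKO over wt was 0.62 at a limit of 0.5% and 0.69 with depth parts weighted equally.

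Signs changed for some lists. Cytosolic ribosomal proteins had -0.018 at a minimum count of 500, -0.019 without cells between 0.8 and 1.2% and -0.093 after thinning; heat-shock genes had -0.0059 after thinning. Mitochondrial chaperones had -0.0082 with a marker sum of at least 20, -0.13 after thinning and -0.0076 with depth parts weighted equally. Neuron markers, at -1.6 in the fit, had 0.011 at a limit of 2%. For GlaKO over wt in the low class, X-linked and imprinted genes had -0.00075 after thinning, and microglia markers, otherwise at -0.50, had 0.43 with depth parts weighted equally. The cause was not tested in any of these.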
